A study of Homo sapiens with 4 samples.

Results

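The regions described here were the bodies of very long genes: the autosomal protein-coding genes of GENCODE v44lift37 whose annotated end minus start was 500 kb or more on GRCh37 (hg19). There were 310 such genes (1.61%) among 19229 autosomal protein-coding genes, and the choice used the annotation only. They ran from 501 kb (ANO5) to 2474 kb (RBFOX1), with a median of 719 kb. Of these, 67 were 1 Mb or longer and 5 had no symbol beyond their Ensembl identifier. The 3 shortest were KCNAB1, SPOCK3 and ANO5, all at 501 kb, and the longest genes just outside were DIAPH3 at 498.3 kb, ITPR2 at 497.8 kb and CACNA2D1 at 497.5 kb. There were 4 pairs of members that overlapped each other, and 35 members contained another protein-coding gene (42 in all), so that not every read was counted for 1 gene alone. The comparison class was the 7711 genes of 20 to 100 kb, and the local comparison was the 500 kb on either side of each gene.

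Nucleosome maps came from BE(2)C, an established MYCN-amplified human neuroblastoma cell line. Cells carried either a control siRNA (genotype label wild type, 2 libraries) or an siRNA against MYCN (label N-myc kd, 2 libraries). The siRNA dose was 80 nM by the labels and lower by the description of the methods, and cells were taken on the next day by both. Crosslinked chromatin was cut with micrococcal nuclease (MNase), which digests the DNA between nucleosomes, and paired ends of the protected fragments were sequenced. The study calls its replicates biological but the sources do not say whether they were separate cultures, so the p-values below measure only the spread between these libraries. The knockdown itself could not be checked from these DNA libraries. The MYCN body held 116, 84.2, 117 and 89.5 times the typical reads per kb in control 1, control 2, knockdown 1 and knockdown 2. This is a count of protected DNA and not of transcript. Nucleosomes of MYCN averaged 1320, 1570, 1336 and 1608 reads, in the same order. The largest count of any nucleosome was 1764 in all 4 libraries, and whether counts were capped there was not tested.

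Each deposited list gives called nucleosomes of fixed length with a read count (read-pair midpoints per nucleosome, at least 6) and a fuzziness, which is how widely the midpoints scatter about the dyad or nucleosome centre (an SD, in bp). The lists held 147370973 to 242544884 reads, with both second replicates deeper than both first ones. Reads per kb of a gene were therefore divided by the median of the library's autosomal 10-kb bins (50.9 to 83.7 reads per kb), which is called relative reads below. Spacing is the mean distance between neighbouring dyads, over distances of 100 to 300 bp. Reads per kb follow both the number of DNA copies and the occupancy of each copy, which cannot be told apart here.

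Very long human genes are mostly intron, and many of them encode adhesion molecules, receptors and channels of neurons. Their transcription takes hours, they often lie in AT-rich, late-replicating chromatin, and several of them cover common fragile sites, where breaks and deletions recur in cultured and tumour cells. A nucleosome holds its DNA the better the more easily that DNA bends, so base composition bears on where nucleosomes sit, and MNase itself cuts AT-rich DNA faster.

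Few nucleosomes of these genes lay at the same base in all libraries. Of 935491 nucleosomes called in the 310 bodies in control 1, 3849 (0.411%) had their dyad within 5 bp of one another in all 4 libraries, against 0.676% of the nucleosomes in genes of 20 to 100 kb. Among members the share ran from 0% in ST6GALNAC3 to 1.02% in GSE1, a gene of GC-rich sequence. A minimum of 30 reads in each library left 44 shared nucleosomes in 31 members. The sequences of 3 of the most diffuse among these are shown. Their called dyads recurred within 5 bp in all 4 libraries, although the midpoints scattered widely about them. The IQCJ-SCHIP1 nucleosome was at the read minimum, with 31, 30, 30 and 30 reads in control 1, control 2, knockdown 1 and knockdown 2. All 3 were intronic. They are written from the GRCh37 plus strand, 5′ to 3′, and the capitals mark the bases from the lowest to the highest of the 4 called dyads.
PRKCE: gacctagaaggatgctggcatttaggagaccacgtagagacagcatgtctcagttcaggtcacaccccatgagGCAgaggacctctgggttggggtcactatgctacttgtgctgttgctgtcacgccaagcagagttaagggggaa
DPP6: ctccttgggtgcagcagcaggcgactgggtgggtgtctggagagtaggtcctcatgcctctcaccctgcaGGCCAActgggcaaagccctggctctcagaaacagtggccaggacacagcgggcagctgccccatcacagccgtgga
IQCJ-SCHIP1: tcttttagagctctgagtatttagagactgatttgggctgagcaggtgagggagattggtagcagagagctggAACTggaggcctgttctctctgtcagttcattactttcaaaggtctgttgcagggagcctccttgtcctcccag
These nucleosomes had a mean fuzziness of 38.9 bp in PRKCE (chr2:46406100-46406246), 38.5 bp in DPP6 (chr7:154652419-154652565) and 37.0 bp in IQCJ-SCHIP1 (chr3:159521994-159522140). In PRKCE it was 39.0, 41.4, 35.2 and 39.9 bp in control 1, control 2, knockdown 1 and knockdown 2, in DPP6 35.6, 34.0, 42.8 and 41.5 bp, and in IQCJ-SCHIP1 37.5, 36.4, 36.6 and 37.4 bp. The groups overlapped in PRKCE and IQCJ-SCHIP1 and did not in DPP6, and no test was made on single nucleosomes. The central 31 bases of each of the 3 occurred once in the genome. Their GC content was 53.7%, 63.9% and 49.7%.

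The long genes were AT-rich. Their median GC content was 38.2% (33.7% in CSMD3 to 56.6% in GSE1), below the 43.6% of genes of 20 to 100 kb, and exons made up 1.36% of the median body against 12.5%. In 226 of 310 members the body had a lower GC content than its own flanks. Over 10-kb bins of the genome, the relative reads of control 1 rose from 0.526 at 30% GC to 1.60 at 58% GC, and those of knockdown 2 from 0.611 to 1.38. All levels are therefore given both as summed and after division by the level that each library showed at the same GC content (GC-corrected, where 1 is that level).

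The members did not form 1 population of read density. The relative reads, averaged over the 4 libraries, ran from 0.425 in GALNT13, a glycosyltransferase gene, to 1.57 in SHANK2, which encodes a postsynaptic scaffold. After GC correction the values fell into 3 clumps, with 59 members under 0.65, 104 from 0.8 to 1 and 144 at 1 or more, and only 3 members between 0.65 and 0.8. These limits were set at the sparse points of the distribution after it was seen, and no test was made on them. On some chromosomes the members shared 1 level. All 23 members on chromosome 4 lay between 0.747 and 1.02, the 27 on chromosome 7 between 1.05 and 1.33, and the 5 on chromosome 18 between 0.529 and 0.563, near the median of all bins of the same chromosome (0.931, 1.22 and 0.563). Chromosomes 1, 2, 3, 9 and 11 held members of both the lowest and the highest clump, and over all members the level correlated with the median bin of the chromosome with r = 0.47. Over the 310 members the GC-corrected level of the body went with that of its own flanks with r = 0.97, a description across genes that share libraries and neighbourhoods.

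**Figure D1:**
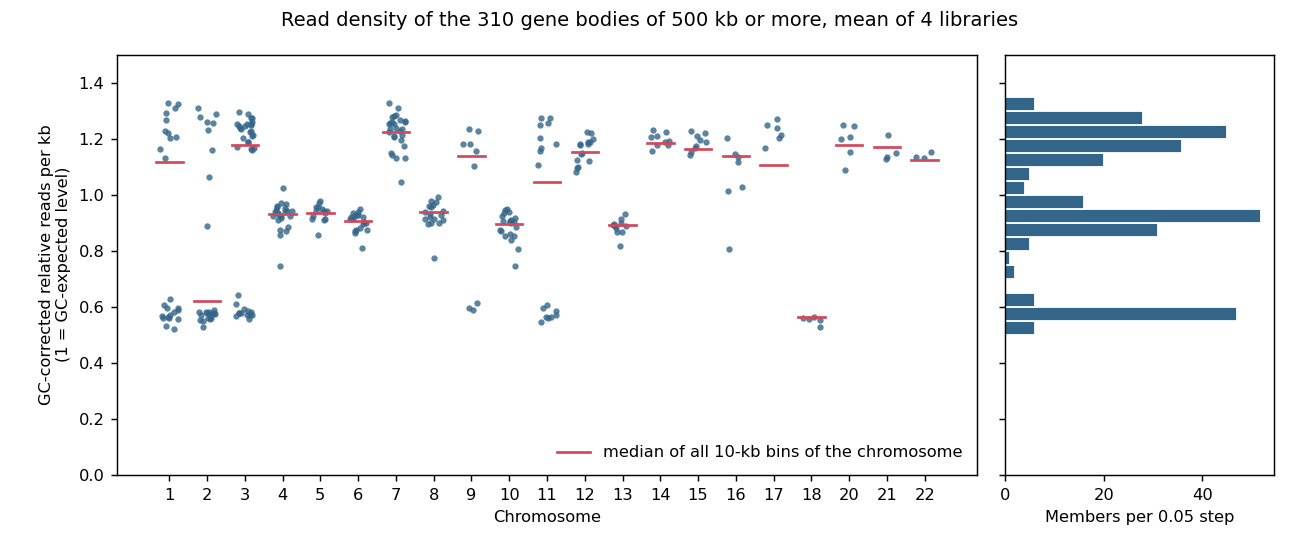
GC-corrected relative reads per kb of each of the 310 long gene bodies (points, mean of 4 libraries) by chromosome on the left, with a horizontal spread added for legibility and red lines at the median of all 10-kb bins of that chromosome. The bars on the right count members per step of 0.05. The points form clumps near 0.57, 0.92 and 1.21, and chromosomes 1, 2, 3, 9 and 11 hold both low and high members.

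Inside most members the level was even. The lowest 100-kb window, a running median of 10 bins of 10 kb, was 0.951 of the gene's own median in the median member, and 7 members had a window under 0.8 of it. These were RBFOX1, CCSER1, ATRNL1, MYT1L, KIRREL3, WWOX and LSAMP, and they are named after their values were seen.

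RBFOX1, an RNA-binding regulator of splicing and the longest member (chr16:5289803-7763342), had the emptiest interior. From chr16:5835883 to 6273064, a 437-kb stretch (17.7% of the gene) starting 546 kb from its 5′ end, the lists held 2, 3, 1 and 4 nucleosomes in control 1, control 2, knockdown 1 and knockdown 2, with 23, 36, 17 and 42 reads in all. The gap was present in every library, and the reference there had no undetermined bases. It covered 2 of the 38 merged exons of the gene, 1 of them in the canonical transcript. Around it lay further steps. Of 247 bins of 10 kb in the gene, 45 were under 0.25 and the rest of the 85 bins under 0.75 formed shorter runs at an intermediate level. A run of 60 kb, starting 30.2 kb from the 5′ end, had 0.565 to 0.629 over the 4 libraries, a run of 110 kb starting at 1300 kb had 0.455 to 0.539, and a run of 80 kb starting at 1500 kb had 0.464 to 0.615. The remaining bins had a median of 1.13, so these runs were near one level and the gap near 0.

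CCSER1, a coiled-coil gene on chromosome 4, had a 410-kb stretch (chr4:91220001-91630000) with GC-corrected reads of 0.131, 0.229, 0.132 and 0.228 in control 1, control 2, knockdown 1 and knockdown 2, against 0.952 to 0.978 in the rest of the gene. ATRNL1, an attractin-like receptor gene, had 0.171, 0.234, 0.142 and 0.243 over 230 kb (chr10:116950001-117180000), against 0.919 to 0.951 outside. In both genes the shallower first replicates were lower than the second ones and the groups overlapped. A nucleosome needed 6 reads to be listed, so a thinly covered stretch is understated, and more so in the shallower libraries. The stretches covered 11 merged exons of CCSER1 and 13 of ATRNL1.

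MYT1L, a zinc-finger transcription factor of neurons (chr2:1792885-2335436, minus strand), changed level once, at 355 kb from its 5′ end. Up to there, 5′ flank included, the level was 1.16 to 1.195 over the 4 libraries, and beyond it, 3′ flank included, 0.503 to 0.535. FHIT, a nucleotide hydrolase at a common fragile site, and PTPRG, a receptor tyrosine phosphatase, lie head to head on chromosome 3 and located the same step: the best single split of either gene with its flanks fell at chr3:61350001, which is 113 kb upstream of FHIT and 197 kb upstream of PTPRG. The FHIT side had 0.544 to 0.606 and the PTPRG side 1.205 to 1.22. PTPRD, another receptor phosphatase, had its split 13 kb inside its 5′ end (chr9:10600001), with 0.537, 0.598, 0.561 and 0.626 before it and 1.22 to 1.23 over nearly the whole body. For ASIC2, an acid-sensing channel gene, the split lay 110 kb past its 3′ end, with 1.19 to 1.23 in the body and 0.537 to 0.633 beyond. At these 5 genes the lower side held 0.441 to 0.488 of the level of the higher side, and in each the 4 libraries of one side did not reach those of the other.

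WWOX, the oxidoreductase gene of another fragile site, showed a shallower dip, with 0.716 to 0.75 over 100 kb (chr16:78730001-78830000) against 1.04 to 1.08 in the rest. KIRREL3, an adhesion gene, had 0.573 to 0.601 over its last 50 kb against 1.19 to 1.27. LSAMP, a neuronal adhesion gene, had 0.847 to 0.937 over 60 kb against 1.18 to 1.21. In all 7 genes both groups showed the low stretch.

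**Figure D2:**
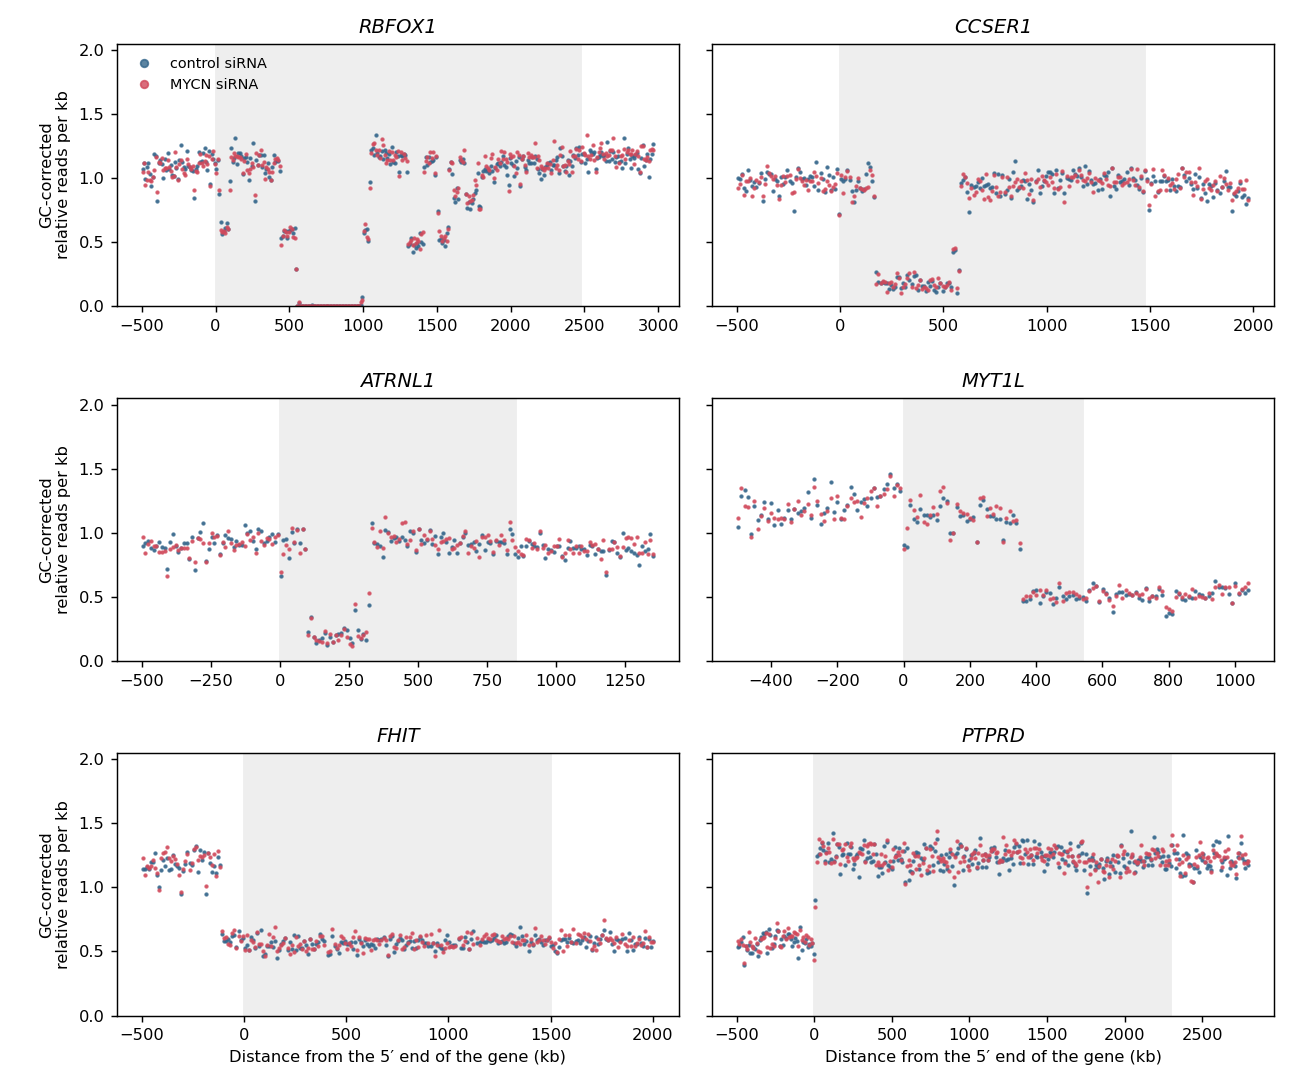
GC-corrected relative reads per kb in 10-kb bins along 6 long genes and 500 kb of flank, from 5′ to 3′, as means of the 2 control siRNA (blue) and the 2 MYCN siRNA (red) libraries; the grey band is the gene body. RBFOX1 falls to about 0 over 437 kb, CCSER1 and ATRNL1 to about 0.2, MYT1L steps down inside the body, FHIT upstream of it, and PTPRD steps up at its 5′ end, in both groups.

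Against the 500 kb on either side, the long bodies held slightly fewer reads. The median log2 ratio of body to flank over the 310 members was -0.05, and -0.02 over all tested genes. In the limma fit on 11217 genes of 20 kb or more, 180 members were lower than their flanks and 68 higher at an adjusted p under 0.05, where 41.6% and 28.9% of all tested genes were called lower and higher. The median turned with base composition. With GC-corrected densities it was 0.01, and 65 members were called lower and 90 higher (30.4% and 12% of all tested genes). The ratio as summed went with the difference in GC content between body and flank with r = 0.74 over members, which share libraries and in part flanks. After correction, 275 of 310 members lay within 0.1 of their flanks on the log2 scale, 24 were lower and 11 higher.

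The members farthest from their flanks were mostly those with a step or a gap. For FHIT the log2 ratios as summed were -0.70, -0.59, -0.68 and -0.58 in control 1, control 2, knockdown 1 and knockdown 2, a mean of -0.64 (SE 0.022, adjusted p = 9.1e-06 by limma), and -0.52 after GC correction. For RBFOX1 they were -0.62, -0.60, -0.57 and -0.58, a mean of -0.59 (SE 0.0065, adjusted p = 1.2e-07), and -0.47 after correction. ATRNL1 had -0.71, -0.61, -0.63 and -0.57, and its mean of -0.63 became -0.25 after correction. In these genes every library was below its flanks.

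NCKAP5 and ROBO2 came out lowest. NCKAP5, a gene of chromosome 2, had -1.01, -0.71, -1.0 and -0.70, a mean of -0.85 (SE 0.061), and ROBO2, an axon guidance receptor that binds Slit ligands, had -0.72, -0.65, -0.70 and -0.64, a mean of -0.68 (SE 0.015). Their flanks held very dense bins, up to 15.1 times the typical bin beside NCKAP5 and 9.07 times beside ROBO2 in control 1, where 3 and 9 of 100 flank bins were above 4. GC correction left the mean ratio of NCKAP5 at -0.72, again the lowest of the members. Taken over the medians of 10-kb bins, the mean ratio was -0.24 for NCKAP5 and -0.22 for ROBO2. That summary also moved FHIT to -0.29, RBFOX1 to -0.28 and ATRNL1 to -0.43. After GC correction the median bin of the ROBO2 flanks (1.32 upstream and 1.28 downstream) was close to that of the middle of the body (1.28).

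At the other end, ASIC2 had 0.34, 0.30, 0.34 and 0.32, a mean of 0.32 (SE 0.010, adjusted p = 5.9e-06), 0.28 after correction and 0.15 over bin medians. PTPRD had 0.31, 0.30, 0.32 and 0.31, and its mean of 0.31 became 0.43. PTPRG had 0.29, 0.25, 0.31 and 0.25, with means of 0.27 and 0.23, and 0.10 over bin medians. All 3 held a step beside or at the edge of the body. SH3RF3, a ubiquitin ligase gene with a GC content of 48.6% in the body and 43.3% in the flanks, had 0.40, 0.27, 0.40 and 0.18, and its mean of 0.31 became 0.08 after correction (adjusted p = 0.099). KIRREL3 went from 0.25 to 0.09 and was still called (adjusted p = 0.0074).

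**Figure D3:**
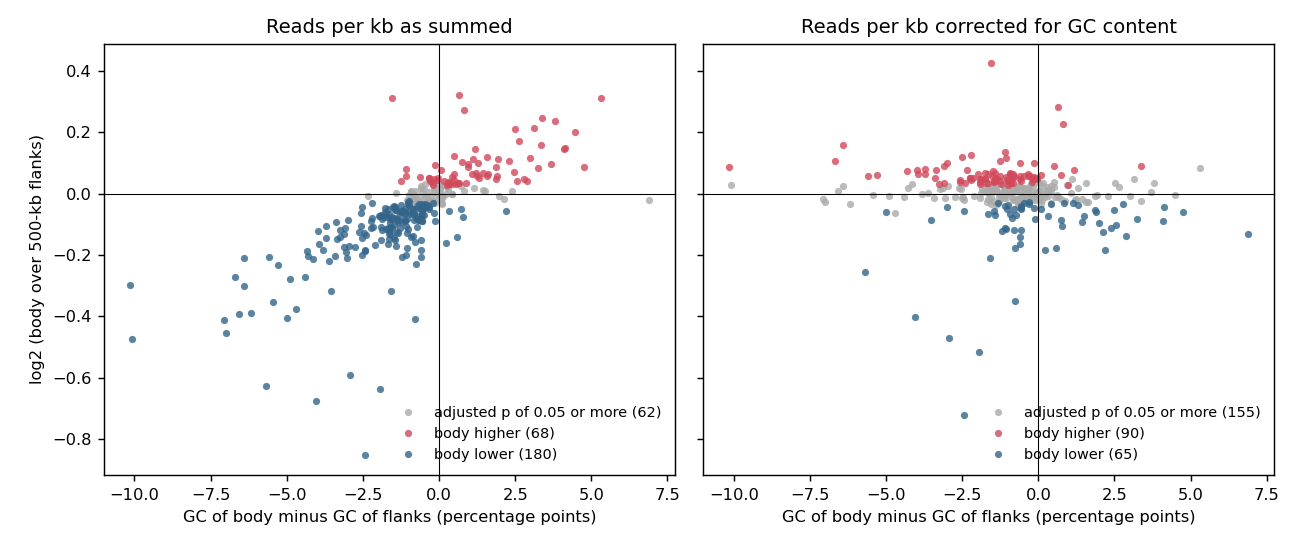
log2 ratio of reads per kb in each long body to its 500-kb flanks (vertical) against the GC content of the body minus that of the flanks (horizontal, percentage points), as summed on the left and GC-corrected on the right; 1 point per member, mean of 4 libraries. Red and blue points were called higher and lower by limma. On the left 180 were lower and 68 higher, and on the right 65 and 90. The correlation with the GC difference (r = 0.74) was computed for the left panel only.

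Compared with genes of 20 to 100 kb, the long genes had fewer reads and fewer called nucleosomes. Their median relative reads were 0.952, 0.941, 0.951 and 0.942 in control 1, control 2, knockdown 1 and knockdown 2, against 1.14, 1.16, 1.12 and 1.14. The difference was -0.194 ± 0.0198 (SD, n = 4), negative in 4 of 4 libraries, with an exact two-sided sign-flip p of 0.125, the smallest that 4 libraries allow. Called nucleosomes per kb were 3.81, 4.33, 3.89 and 4.36, against 4.05, 4.39, 4.07 and 4.40. The mean reads per called nucleosome were 12.7, 18.1, 12.5 and 18.1, against 14.4, 22.0, 14.1 and 21.5. All 4 libraries put the long genes lower on the 3 measures, and 221, 209 and 224 of the 310 members lay below the median of the shorter genes.

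Base composition moved with this difference. After GC correction the long genes had 0.960, 0.960, 0.957 and 0.961 and the shorter ones 1.01, 1.04, 1.01 and 1.04, a difference of -0.065. Among genes of 36 to 40% GC (148 long, 1795 shorter) the difference in relative reads was -0.031, and that in nucleosomes per kb turned to 0.013. Both choices left a lower read level in the long genes in 4 of 4 libraries, but by less.

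Fuzziness did not separate the classes. It was 34.7, 36.2, 34.8 and 36.2 bp in long genes and 34.6, 36.4, 34.5 and 36.3 bp in the shorter ones, higher in long genes in the 2 first replicates and lower in the 2 second ones. The mean difference of 0.038 ± 0.202 bp (SD, n = 4; exact sign-flip p = 0.75) turned to -0.086 bp with genes of 750 kb or more, and to -0.037 bp without knockdown 1. Spacing was wider in long genes in 4 of 4 libraries, at 209.5, 207.9, 209.3 and 208.0 bp against 208.3, 207.4, 208.1 and 207.3 bp (exact sign-flip p = 0.125, n = 4). Among genes of 36 to 40% GC that difference was 0.0012 bp. Wide distances were also more common: 27.3%, 16.6%, 26.3% and 16.2% of neighbour distances in long genes were over 300 bp, against 23.2%, 14.9%, 22.8% and 14.6%.

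**Figure D4:**
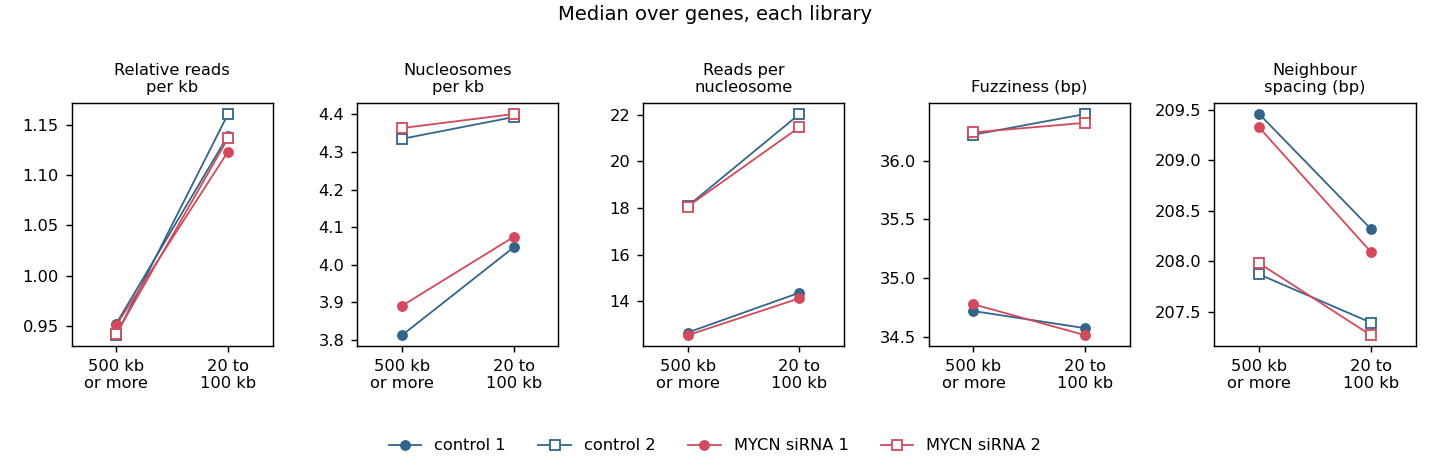
Medians over the 310 genes of 500 kb or more (left of each panel) and the 7711 genes of 20 to 100 kb (right), 1 line per library; the vertical axes do not start at 0. Relative reads, nucleosomes and reads per nucleosome are lower and spacing is wider in long genes in all 4 libraries, fuzziness crosses, and the first and second replicates lie apart in every measure but relative reads.

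Among the members, fuzziness and spacing followed the number of reads. Over the 310 genes, mean fuzziness correlated with reads per nucleosome with r = 0.92 to 0.94 in the 4 libraries, and spacing with r = -0.61 to -0.72, as descriptions across genes of one library. The members with the highest fuzziness were PLXNA4, a semaphorin receptor (35.9, 37.1, 35.6 and 37.2 bp), CLSTN2 (35.8, 37.3, 35.7 and 37.0 bp), TENM4, a teneurin (35.8, 37.1, 35.7 and 37.0 bp), ASIC2 and PRKCE, a protein kinase C. All 5 belonged to the densest clump, with GC-corrected levels of 1.16 to 1.202. The lowest were LUZP2 (33.2, 34.5, 33.6 and 34.5 bp), SOX6, a transcription factor (33.1, 34.7, 33.3 and 34.7 bp), LRP1B, a lipoprotein receptor relative (33.4, 34.6, 33.4 and 34.6 bp), FAF1 and NEGR1, a neuronal adhesion gene. All 5 belonged to the sparsest clump, with levels of 0.547 to 0.564. These genes were picked as the extremes. The 2 replicates of a group differed by more than the groups did.

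The relation held in part at equal read counts. Among nucleosomes of 12 to 15 reads, the mean fuzziness was 35.1 ± 0.343 bp (SD, n = 4) in the 59 sparse members and 35.8 ± 0.774 bp in those of the densest clump, a difference of 0.318 to 1.15 bp that was positive in 4 of 4 libraries. Between all long genes and genes of 20 to 100 kb the difference at 12 to 15 reads was -0.123 to 0.456 bp, with both signs, and at 21 to 30 reads 0.052 to 0.392 bp, positive in 4 of 4 libraries.

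The widest spacing was in ADGRL2, a latrophilin adhesion receptor (212.1, 212.3, 213.1 and 211.8 bp), LRRC7, a postsynaptic density protein (213.4, 211.2, 214.3 and 210.4 bp), ZNF407, CNTNAP5 and B3GALT1. All 5 were in the sparsest clump. Among the narrowest were KSR2, a scaffold of the RAS pathway (206.4, 206.1, 205.1 and 205.7 bp), SYN3, a synapsin, LHFPL3 and KIRREL3. These genes were picked as the extremes, so the gap between them is no test.

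Along the body the level was flat. In 20 equal parts from the 5′ to the 3′ end, the median relative reads over members ran from 0.930 to 0.992, and in the 50-kb parts of the flanks from 0.962 to 1.02. The GC content ran from 37.7% to 39.6% in the body parts. After GC correction the body parts ranged from 0.979 to 0.997 and the flank parts from 0.974 to 1.003. Averaged over the 4 libraries, fuzziness was lowest in the first of the 20 parts, at 35.37 bp, and reached 35.53 bp elsewhere in the body. Of the single libraries, only control 1 had its lowest value in the first part. That part had 36.107, 34.667 and 36.141 bp in control 2, knockdown 1 and knockdown 2. Their lowest values, in later parts, were 36.096, 34.653 and 36.132 bp.

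Exons stood out from the introns around them. Summed over the 310 genes, relative reads were 1.10, 1.07, 1.10 and 1.07 in exons and 0.923, 0.930, 0.926 and 0.932 in introns of control 1, control 2, knockdown 1 and knockdown 2. The difference of 0.158 ± 0.021 (SD, n = 4) was positive in 4 of 4 libraries (exact sign-flip p = 0.125, the smallest possible). Reads per nucleosome differed by 1.21 ± 0.286, again in 4 of 4 libraries. The GC content of these exons was 43.3% and that of the introns 38.7%, and its part in the difference was not tested. The mean fuzziness was 35.45 bp in exons and 35.40 bp in introns.

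Promoters were compared with those of genes of 20 to 100 kb as shares, with no test of the difference. A promoter was counted as free where no nucleosome had 80% of its length or more within 200 bp upstream to 50 bp downstream of the canonical start site. This held for 50.3%, 45.2%, 54.2% and 41.9% of members in control 1, control 2, knockdown 1 and knockdown 2, against 62.4%, 56.1%, 64.9% and 56.0% of genes of 20 to 100 kb. In 71 members (22.9%) the promoter was free in all 4 libraries, among them RBFOX1, MACROD2, PCDH15 and FHIT, and in 76 it was occupied in all 4, among them CNTNAP2, DLG2, CSMD1 and CTNNA3. The shares in genes of 20 to 100 kb were 36.5% and 17.7%. The bodies of the 2 sets, free and occupied, had median fuzziness of 35.3 and 35.4 bp and spacing of 208.8 and 208.4 bp. Their median relative reads were 0.897 and 0.951, and 0.925 and 0.999 after GC correction. No test was made between them.

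Between control and knockdown, no long gene passed the threshold in the fit without a term for the replicate number. In edgeR's quasi-likelihood fit on 19200 genes, 0 of 310 members and 0 genes in all (0%) had an adjusted p under 0.05. At an unadjusted p under 0.05 there were 77 members and 476 genes (2.48%), and DESeq2 gave 0 adjusted calls, and 7 members and 71 genes in all at an unadjusted p under 0.05. The median log2 change (knockdown over control) was 0.05 over members and -0.003 over all genes, and 285 of 310 members were above 0, as were 48.4% of all genes.

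These small changes followed base composition. Over members, the log2 change fell with GC content with r = -0.79. An offset that removed each library's trend with GC brought r to 0.16 and the median to 0.02 (0.01 over all genes). With the offset, 0 members and 228 genes in all had an unadjusted p under 0.05 by edgeR. Still, 243 of 310 members were above 0, as were 59.4% of all genes. With the replicate number as a block, edgeR called 241 members (1962 genes in all), and with block and GC offset 106 (322 genes). Nothing says that this number marks a shared batch. Relative to the median 10-kb bin, in place of TMM scaling, the median member stood at 0.947 ± 0.0081 in controls and 0.946 ± 0.0060 after knockdown (SD, n = 2; exact permutation p = 1, where 0.333 is the smallest possible). On that scale both knockdown libraries exceeded both controls in 72 members (6.28% of all genes did so) and stayed below both in 34 (31.5% of all genes).

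Among the 5 members with the smallest p upward were PPFIA2, a liprin of the presynapse, CNTN5, PTPRD and NKAIN3. PPFIA2 had 0.895 and 0.887 relative reads in controls and 0.951 and 0.935 after knockdown, and the groups did not overlap. Its log2 change was 0.12 (adjusted p = 0.988 by edgeR) and 0.05 with the GC offset. CNTN5, a contactin adhesion molecule, had 0.993 and 0.990 against 1.04 and 1.02, and NKAIN3 had 0.840 and 0.835 against 0.875 and 0.870. PTPRD had 0.982 and 0.996 against 1.01 and 1.02. These 4 lay at 34.5% to 37.5% GC. They were picked by their p values, so the separation of their groups is no test. On this scale both knockdown libraries exceeded both controls in 6.28% of all genes.

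Downward, the smallest p values belonged to CAMTA1, SLIT3, GSE1, SORCS2 and SH3RF3, which lay at 45.0% to 56.6% GC. CAMTA1, a calmodulin-binding transcription activator on chromosome 1, had 0.751 and 0.752 in controls and 0.681 and 0.711 after knockdown, a log2 change of -0.07 (adjusted p = 0.988) and -0.03 with the GC offset. SLIT3, a guidance ligand of the ROBO receptors, had 1.09 and 1.07 against 1.004 and 1.03. GSE1 had 1.64 and 1.53 against 1.501 and 1.41. In all 3 genes both knockdown libraries were below both controls, as they were in 31.5% of all genes on this scale. The genes were picked by their p values, so that separation is no test.

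**Figure D5:**
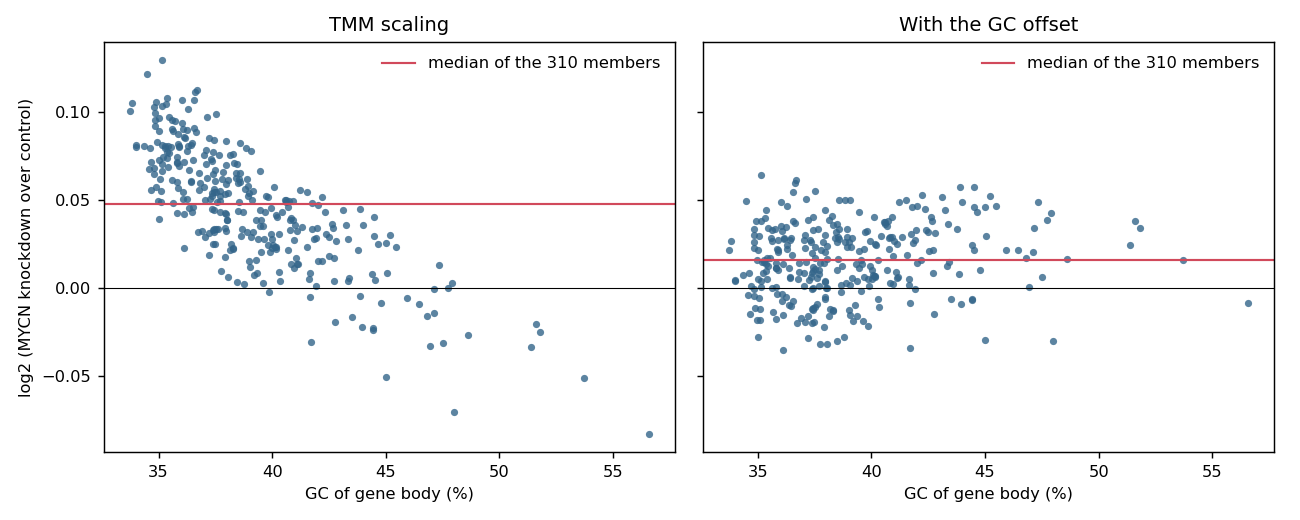
log2 change of reads in the gene body after MYCN knockdown (vertical) against the GC content of the body (horizontal), 1 point per member, with TMM scaling on the left and with an offset for each library's GC trend on the right; the red line is the median of the 310 members. The points slope from about 0.1 to below 0 on the left and are level on the right, where the median is 0.02.

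The other measures gave no call either in fits without a term for the replicate number. There limma found 0 of 310 members, and 0 genes in all (0% each), with a changed ratio of body to flank, fuzziness or spacing. With the replicate number as a block, 36 members (30 up, 6 down) and 178 of 11217 genes had a changed ratio. Fuzziness and spacing still had 0 members called. Without the block, 12, 0 and 2 members (73, 0 and 555 genes in all) had an unadjusted p under 0.05 by limma. With the block these were 107, 39 and 10 members (1472, 857 and 769 genes). No other tool was run on these 3 measures. On values divided by the library's median, both knockdown libraries were above both controls in fuzziness in 0 members and below in 0 (3.31% and 4.22% of all genes), and in spacing in 26 and 21 (15% and 16.3%). The median changes over members were 0.01 on the log2 scale, 0.044 bp and 0.039 bp. With 1 library left out, which leaves the groups unequal in depth, the median ran from -0.689 to 0.780 bp for fuzziness and from -0.808 to 0.875 bp for spacing. The largest fuzziness change was 0.368 bp, in EPHA6, an ephrin receptor gene, whereas the median member differed by 1.48 bp between first and second replicates. For the median member, reads per nucleosome were 15.4 ± 3.83 in controls and 15.3 ± 3.91 after knockdown (SD, n = 2), and nucleosomes per kb were 4.07 ± 0.369 and 4.13 ± 0.334 (exact permutation p = 0.667 for both).

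Members were also grouped by what they encode. All 25 listed genes of common fragile sites were members, led by CNTNAP2, DLG2 and MACROD2; 18 were below and 4 above their flanks, 7 and 8 after GC correction. Their median GC-corrected level was 1.17, against 0.958 over all members. Of 33 members for synaptic and neuronal adhesion (46 listed), led by CNTNAP2, CSMD1 and PCDH15, 24 were below and 6 above their flanks, and 8 and 7 after correction, with a median level of 0.974. Of all genes tested, 41.6% were called below and 28.9% above their flanks as summed. After GC correction these shares were 30.4% and 12%.

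Of 15 receptors for glutamate or GABA and their scaffolds, DLG2 and MAGI2 among them, 6 were below and 4 above their flanks (41.6% and 28.9% of all tested genes), and the median log2 ratio was -0.01. Of 11 ion channels and their subunits, led by DPP10, DPP6 and KCNIP4, 5 were below and 4 above, with a median of -0.01. Of 18 kinases, phosphatases, phosphodiesterases and related enzymes, led by PTPRD and PDE4D, 10 were below and 6 above. Transcription and RNA regulators, led by RBFOX1, MACROD2 and RBMS3, gave 17 below and 2 above among 23; MACROD2 stands in that list although it encodes an ADP-ribose hydrolase. The counts after correction were 3 below and 4 above, 2 and 1, 4 and 5, and 6 and 5 in these 4 lists, beside 30.4% and 12% of all tested genes.

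Of 23 genes listed as altered in neuroblastoma, 18 were members, led by CNTNAP2, PTPRD and DLG2. They gave 11 below and 5 above their flanks (41.6% and 28.9% of all tested genes), and 8 and 6 after correction (30.4% and 12%), with a median GC-corrected level of 1.125. None of the 7 lists held a member called between control and knockdown by edgeR without a term for the replicate number (0% of all genes). At an unadjusted p under 0.05 the lists held 5, 12, 6, 2, 6, 4 and 5 members in the order given. Beside these stood 77 of all 310 members and 2.48% of all genes. DESeq2 likewise called 0 members in any of them. The median log2 changes of the lists were 0.02 to 0.06, and 0.01 to 0.02 with the GC offset, beside 0.05 and 0.02 over all members.

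The 10 longest members spanned the clumps. CNTNAP2, an adhesion molecule of the neurexin family, stood at 1.22 to 1.23 in the 4 libraries after GC correction, DLG2, a postsynaptic scaffold, at 1.26 to 1.29, and MACROD2, an ADP-ribose hydrolase gene, at 1.23 to 1.26. CSMD1, a large membrane protein with complement control domains, stood at 0.888 to 0.915, EYS at 0.925 to 0.933, CTNNA3, an alpha-catenin, at 0.925 to 0.951 and PCDH15, a protocadherin, at 0.914 to 0.933. LRP1B was lowest, at 0.518 to 0.605. Both knockdown libraries were above both controls in CSMD1 (0.902 and 0.915 against 0.888 and 0.893). The same held for RBFOX1 (0.814 and 0.811 against 0.801 and 0.805) and PTPRD (1.233 and 1.231 against 1.226 and 1.221). In EYS both were below (0.925 and 0.926 against 0.932 and 0.933), and in the other longest members the groups overlapped. None of these genes was called in the fit without a term for the replicate number. The share of all genes that separate on this GC-corrected scale was not counted.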

How the data were processed

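Reads were trimmed by the authors (Trim Galore 0.4.4 in the submitters' processing notes), mapped to hg19 with Bowtie2 (2.2.4), filtered for proper pairs of mapping quality above 10, cleared of duplicates with Samtools, and Genetrack calls were made for each library. In the deposited lists, 1 value is a whole-number count of midpoints for each call, at least 6, and reached 1764 in all 4 libraries. The second deposited value, fuzziness, is a score in bp. Only called nucleosomes are listed, so totals (147726171, 242544884, 147370973 and 239257113 reads) are not library depths, and thin stretches are understated.

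Groups came from the sample titles. The members and gene lists were chosen with earlier results of these data known. Reads in gene bodies (mean of at least 10) were tested with edgeR 4.0.16 (TMM, quasi-likelihood), and body over flank (pseudocount 0.5 reads per kb), fuzziness and spacing (mean of at least 50 nucleosomes) with limma 3.58.1, both in R 4.3.3 with Benjamini-Hochberg adjustment over all genes; DESeq2 1.42.0 was an alternative. Lengths leave out undetermined bases. Single values per library were compared by exact permutation. The fits were tested on simulated data. Genes named in the text are the 10 longest members, the 5 at either end of body over flank, fuzziness and spacing, the 5 smallest p in each direction, those next to the 500-kb limit and the 3 longest of each list, besides extremes of a range, which were chosen after their values were seen. Genes with low windows and exact step positions were chosen after the values were seen. Coordinates are GRCh37, counted from 1. Alternatives covered read minimums, depth, flank width, length limit, GC content, scaling, DESeq2 and left-out libraries; the GC range of 36 to 40% and the medians of 10-kb bins were added after the data were seen. A few genes and sequences that these rules name are not reported here.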

Additional observations from a re-analysis of the deposited data

How the results depend on the processing

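Of 189 alternative values over 24 results, 160 stayed on the same side of the threshold or within the spread between libraries, 25 moved and 4 reversed. For control against knockdown in the median member, any value within the spread between replicates was counted as unchanged, and none could count as reversed. Differences near 0 between control and knockdown changed sign within that spread: with 1 library left out, those of the median member ran from -2.83 to 2.70 in reads per nucleosome, from -0.208 to 0.315 in nucleosomes per kb, from -0.712 to 0.789 bp in fuzziness and from -0.805 to 0.781 bp in spacing, and over a narrower range of neighbour distances the median spacing change was -0.092 bp. Several differences between long genes and genes of 20 to 100 kb moved. Counting only nucleosomes of 12 or more reads, the differences were -0.2997 in relative reads and -0.497 in nucleosomes per kb, the median body over flank was -0.083 and the median log2 change 0.059, and exon minus intron was 0.216 in relative reads and 0.805 in reads per nucleosome. Exons of the canonical transcript gave 0.228 and 1.70. With genes of 750 kb or more, the difference in relative reads was -0.245 and that in fuzziness reversed to -0.086 bp. At equal depth, that in nucleosomes per kb was -0.227. At 36 to 40% GC, a range added after the data were seen, the differences were -0.031 in relative reads, -0.611 in reads per nucleosome and 0.0012 bp in spacing, and that in nucleosomes per kb reversed to 0.013. GC-corrected density gave -0.065 for relative reads, 65 members below their flanks, a median body over flank that reversed to 0.01 (0.0063) and a median change of that ratio of 0.0023. The GC offset gave a median log2 change of 0.016. Flanks without other long genes gave -0.053 and flanks of 100 kb -0.061 as the median body over flank. Leaving out 1 library at a time, the fuzziness difference ran from -0.037 (reversed, without knockdown 1) to 0.110 bp (without control 2), and the median change of body over flank from 0.0077 to 0.0109. The cause of these moves was not tested. In thin stretches, the minimum of 6 reads per call limits what the shallower libraries can show.

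Both groups carry replicate numbers 1 and 2, but nothing says that a number marks a shared culture or batch, and depth goes with the number. Deviations of same-numbered libraries correlated with r = 0.357 over 19200 genes. With the replicate number as a block (replicate block), edgeR called 241 members (231 up, 10 down; 1962 genes in all), and with the block and the GC offset 106 (103 up, 3 down; 322 genes), with a median log2 change of 0.0159. For the change of body over flank, limma with the block called 36 members (30 up, 6 down; 178 of 11217 genes in all). Fuzziness and spacing had 0 members called with the block. In this balanced design the block cannot change the group differences of the median member, nor the limma medians over members. Those values are among the 160 unchanged ones by construction and are no test.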
